A study of Caenorhabditis elegans with 34 samples.

Results

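Germ granule and germline small RNA genes were measured by RNA sequencing of whole C. elegans nematodes, separated by how brightly a fluorescent predictor of lifespan shone. The set was given as 49 gene names chosen by function, which are 48 distinct genes because rde-3 and mut-2 name the same gene. The rule asked for at least 5 counts in at least 26 of the 34 libraries, and all 48 genes met it, among 14245 of the 20223 rows of the count table. They comprise 18 germ granule genes, 10 Argonaute genes, 14 RNA polymerase and mutator genes, and 6 regulators of germline proliferation and fate (glp-1, fbf-1, fbf-2, nos-3, gld-2 and gld-3).

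The libraries predicted to be long-lived were high lin-4p::GFP (6 sorts), high mir-243p::GFP (4 sorts), low mir-240/786p::GFP (4 sorts) and low autofluorescence (3 sorts). The libraries predicted to be short-lived were low lin-4p::GFP, low mir-243p::GFP, high mir-240/786p::GFP and high autofluorescence, each from the same sorts. High and low mean the brightest and the dimmest 10% of 1 population, so each numbered sort gave 1 library of each kind, and each library pools many animals. All animals, in every group, carried the temperature-sensitive spe-9(hc88) mutation, which leaves sperm unable to fertilise, and were grown on E. coli OP50 at 25 °C until day 5. The 3 GFP strains each carry GFP under 1 microRNA promoter, active per the study in the posterior intestine (lin-4), the intestine (mir-243) or the spermatheca (mir-240/786), and the autofluorescence animals carried no reporter.

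Germ granules are droplets of RNA and protein without a membrane that sit on the nuclear envelope of germ cells, where transcripts pass as they leave the nucleus. P granules, the best known of them, are built from the PGL and GLH proteins and, in embryos, from the MEG proteins. Small RNAs held by Argonaute proteins scan transcripts there. An Argonaute that finds a target calls in an RNA-dependent RNA polymerase, which copies the transcript into many secondary small RNAs, and mutator proteins gather the machinery for this step. Secondary small RNAs are then loaded into a further layer of Argonautes that silence the target, in the cytoplasm or in the nucleus, or that protect it.

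Library totals ranged from 15.8 to 26.1 M counts, and of the 48 genes only alg-3 and alg-4 had libraries with 3 counts or fewer. Levels below are counts-per-million values (CPM) after scaling by the trimmed mean of M values, and log2 fold changes set predicted long-lived against predicted short-lived libraries, positive where the first are higher. Transcripts of germ cells were present in every library. All 19 meiotic marker genes and all 13 oocyte marker genes passed the filter, whereas 6 of 20 sperm markers did. Both libraries of lin-4p::GFP sorts 1 and 2 stood apart from those of sorts 3 to 6. Among the predicted long-lived lin-4p::GFP libraries, 42 of the 48 genes were lower in both sorts 1 and 2 than in any of sorts 3 to 6, and among the predicted short-lived ones 39 were. The mean of sorts 3 to 6 exceeded that of sorts 1 and 2 by a median factor of 1.88 in predicted long-lived libraries and 1.74 in predicted short-lived libraries. These counts and factors were not taken over all genes, so whether the shift is particular to the set was not tested. In predicted long-lived libraries, the 13 oocyte markers summed to 8000 to 8579 CPM in sorts 1 and 2, against 13000 to 14290 CPM in sorts 3 to 6. The 7 somatic gonad markers went the other way (204 to 256 CPM against 168.5 to 188 CPM). Summed over the 18 granule genes, sorts 1 and 2 held 2789 to 3238 CPM in predicted long-lived and 2050 to 2232 CPM in predicted short-lived libraries, whereas sorts 3 to 6 held 5142 to 6220 CPM and 3898 to 5209 CPM. The study modelled a sequencing batch that the labels do not give, so whether it moves with these sorts was not tested.

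**Figure D1:**
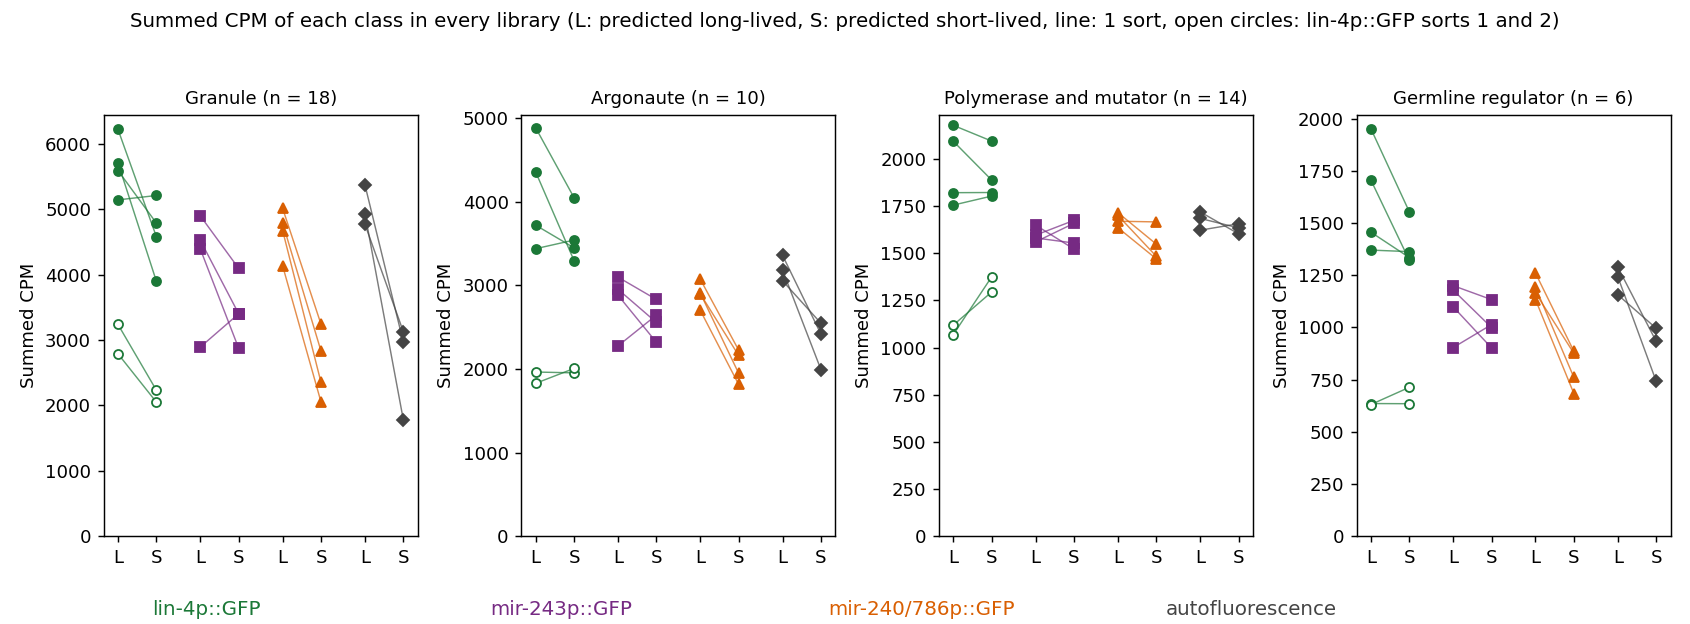
Summed CPM of the 18 granule, 10 Argonaute, 14 polymerase and mutator and 6 germline regulator genes in all 34 libraries, by biomarker, with predicted long-lived (L) left of predicted short-lived (S), 1 line per sort, and open circles for lin-4p::GFP sorts 1 and 2. Granule sums lie between 2789 and 6220 CPM in predicted long-lived and between 1778 and 5209 CPM in predicted short-lived libraries, and the open granule circles (2050 to 3238 CPM) lie below the filled lin-4p::GFP points of the same side.

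In the fit over all 4 biomarkers, 7 of the 18 granule genes were called higher in animals predicted to be long-lived and none lower, while the Argonaute and the polymerase and mutator genes had calls in both directions. In the pooled fit, 11 of the 48 genes were called higher and 2 lower at an adjusted p under 0.0001, the threshold of the study. These are 22.9% and 4.17% of the set, read against 19% of all 14245 genes called higher, 21.6% called lower and 40.6% called in either direction. At an adjusted p under 0.05, 29 genes were higher and 2 lower, which is 60.4% and 4.17% of the set, against 34.7% and 35.6% of all genes. The median log2 fold change of the 48 genes was 0.44, and that of all genes was -0.01. Because whole animals were sequenced, fewer germ cells and less RNA per germ cell cannot be told apart here.

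The shared sort and the libraries that stood apart both moved the number of calls. With the sort as a block, 23 genes were called higher and 2 lower, 47.9% of the set called higher against 21.5% of all genes. Without lin-4p::GFP sorts 1 and 2, 23 were called higher and 2 lower, against 21.6% of all genes called higher. All 13 genes of the first fit were called in each of these fits, and the 2 larger lists of 25 shared 24 genes.

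**Figure D2:**
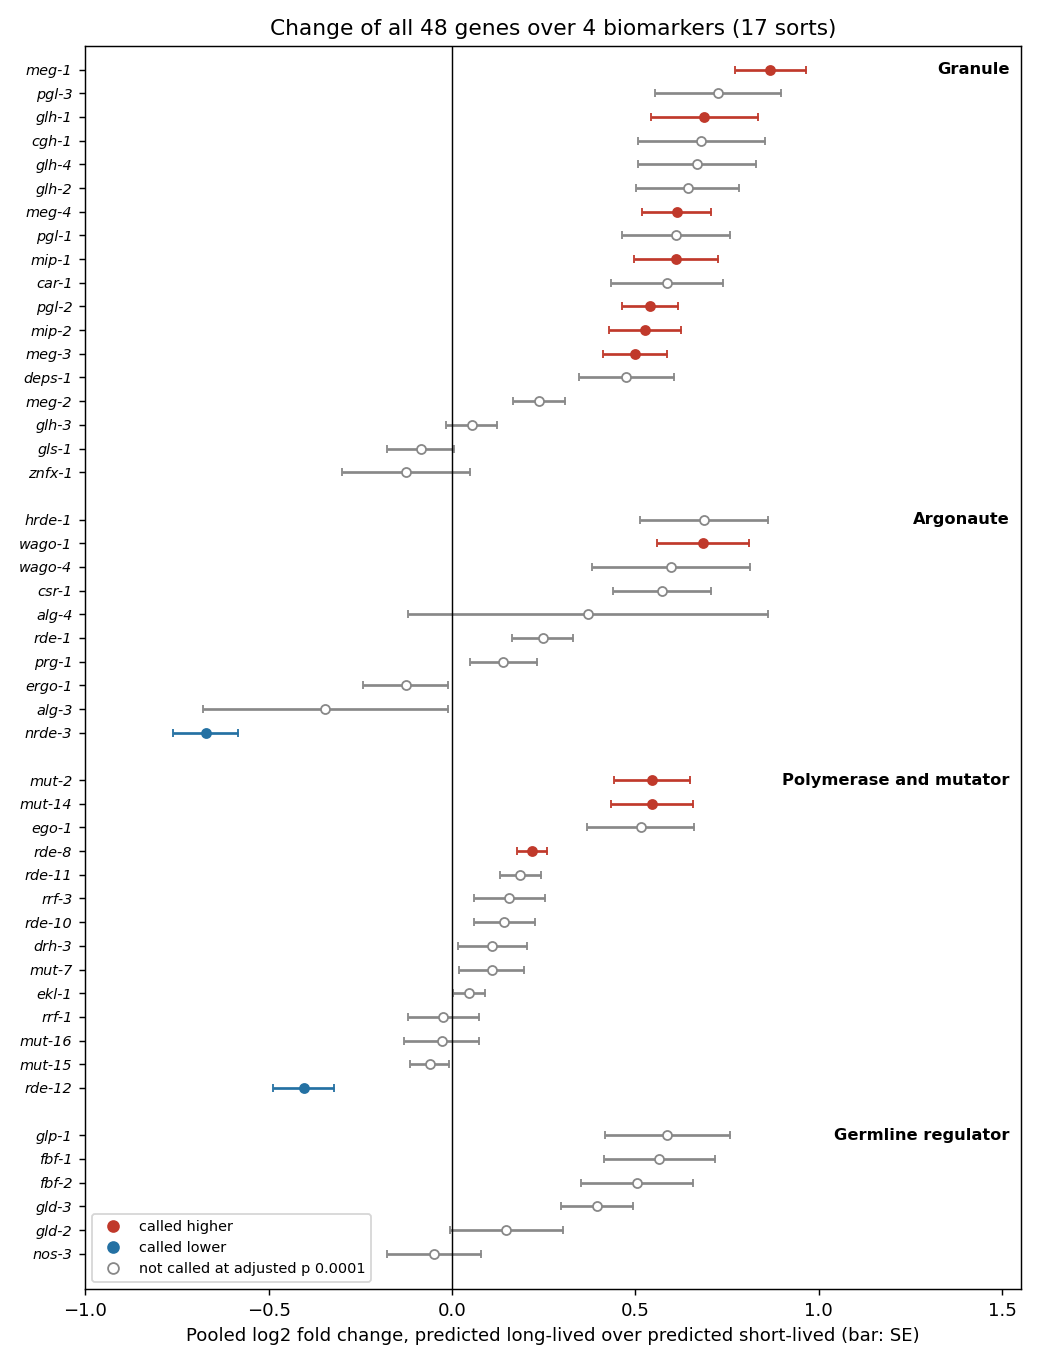
Pooled log2 fold change of each of the 48 genes, predicted long-lived over predicted short-lived, with its standard error, by class. Filled red points were called higher (11 genes), filled blue points lower (nrde-3 and rde-12), and open points were not called at an adjusted p under 0.0001. Of the 18 granule genes, 15 lie between 0.24 and 0.87, and most polymerase and mutator genes lie closer to 0.

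Of the 18 granule genes, 7 were called higher and none lower, against 19% and 21.6% of all genes. At 0.05, 15 passed, all higher, against 34.7% of all genes higher. The median log2 fold change was 0.60. With the sort as a block 14 were called higher (21.5% of all genes), and without lin-4p::GFP sorts 1 and 2, 13 were (21.6% of all genes). The 7 were meg-1, meg-3 and meg-4, which encode disordered proteins of embryonic P granules; glh-1, a helicase related to Vasa that is a constant part of P granules; pgl-2, of the PGL scaffold family; and mip-1 and mip-2, LOTUS domain proteins that anchor P granules through GLH-1. The 3 with the largest changes are given in full.

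The gene meg-1 (WBGene00010492, chromosome X, 13927036 to 13929634 on the minus strand of WBcel235) had the largest change of the set. Among lin-4p::GFP libraries, its lowest, median and highest levels were 133, 185 and 210.5 CPM when predicted long-lived, against 76.6, 116 and 132.5 CPM when predicted short-lived. The mir-243p::GFP libraries held 199, 205, 170 and 145 CPM when predicted long-lived, against 106, 144, 126 and 109 CPM when predicted short-lived. All 17 sorts were higher on the predicted long-lived side, and in neither of these biomarkers did the groups overlap. The mir-240/786p::GFP libraries held 259, 252, 232 and 219 CPM when predicted long-lived, against 103.7, 134, 79.9 and 91.4 CPM when predicted short-lived. Autofluorescence libraries held 173, 229 and 214 CPM when predicted long-lived, against 110, 93.6 and 71.7 CPM when predicted short-lived. The groups did not overlap in these biomarkers either. The pooled log2 fold change was 0.87 ± 0.10 (SE), a 1.82-fold difference (edgeR adjusted p = 1.85e-09).

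Its neighbour meg-2, at 13922643 to 13926129 on the same strand, passed at 0.05 with a smaller change of 0.24 ± 0.07 (adjusted p = 0.00364). For meg-4 (WBGene00016485, chromosome X, 1682954 to 1686419, plus strand), the lin-4p::GFP lowest, median and highest levels were 36.7, 63.2 and 81.8 CPM when predicted long-lived, against 35.3, 46.0 and 57.1 CPM when predicted short-lived. In mir-243p::GFP the libraries held 60.5, 66.2, 54.5 and 58.0 CPM when predicted long-lived, against 40.2, 46.8, 48.99 and 39.4 CPM when predicted short-lived. The lin-4p::GFP groups overlapped and the mir-243p::GFP groups did not. In mir-240/786p::GFP the meg-4 levels were 66.0, 66.0, 73.4 and 69.5 CPM when predicted long-lived, against 32.7, 38.3, 32.2 and 32.7 CPM when predicted short-lived. In autofluorescence they were 58.5, 63.1 and 61.4 CPM when predicted long-lived, against 38.8, 36.3 and 32.1 CPM when predicted short-lived. Both biomarkers separated the groups, and 16 of 17 sorts were higher in predicted long-lived animals. The pooled change was 0.61 ± 0.09 (adjusted p = 7.57e-07).

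For glh-1 (WBGene00001598, chromosome I, 6854478 to 6857536, plus strand), lin-4p::GFP libraries had lowest, median and highest levels of 257, 449 and 803 CPM when predicted long-lived, against 178, 394 and 479 CPM when predicted short-lived. In mir-243p::GFP they held 313, 321, 307 and 205 CPM when predicted long-lived, against 211, 253.5, 220.2 and 221 CPM when predicted short-lived. These groups overlapped, because predicted long-lived mir-243p::GFP sort 4 was the lowest of its 8 libraries. In mir-240/786p::GFP the levels of glh-1 were 296, 317, 248 and 318 CPM when predicted long-lived, against 147, 136, 112 and 214 CPM when predicted short-lived. In autofluorescence they were 414, 419 and 381 CPM when predicted long-lived, against 217, 184 and 121.5 CPM when predicted short-lived. Both of these biomarkers separated the groups. The pooled change of 0.69 ± 0.15 passed narrowly (adjusted p = 9.88e-05), and leaving out any 1 of 24 libraries ended the call, with adjusted p up to 0.000229 and the fold change between 0.64 and 0.75.

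Several P granule genes had fold changes close to that of glh-1 and missed the call. The fold changes were 0.73 ± 0.17 for pgl-3 and 0.61 ± 0.15 for pgl-1, the main scaffold proteins, 0.64 ± 0.14 for glh-2 and 0.67 ± 0.16 for glh-4. The adjusted p-values of these 4 lay between 0.000136 (glh-2) and 0.000443 (glh-4), and all 4 were called with the sort as a block (3.17e-05 or lower). The same held for cgh-1 (0.68 ± 0.17), a DDX6-family helicase that guards stored transcripts, car-1 (0.59 ± 0.15), its LSM-domain partner, and deps-1 (0.48 ± 0.13), a P granule assembly factor that was higher in all 17 sorts. Blocked adjusted p-values were 3.20e-05 for cgh-1, 5.64e-05 for car-1 and 5.69e-06 for deps-1. Without lin-4p::GFP sorts 1 and 2, car-1 was not called (adjusted p = 0.000617).

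The granule genes that did not pass 0.05 were glh-3 (0.05 ± 0.07), gls-1 (-0.09 ± 0.09), which encodes a partner of the GLD-3 and GLH-1 proteins, and znfx-1 (-0.13 ± 0.17), which encodes the helicase of Z granules, the compartment of inherited silencing next to the P granule. Their levels in predicted long-lived and predicted short-lived libraries had medians of 91.8 and 94.3 CPM for glh-3, 228 and 233 CPM for gls-1, and 140.4 and 143 CPM for znfx-1. None of the 3 was called with the sort as a block or without lin-4p::GFP sorts 1 and 2.

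**Figure D3:**
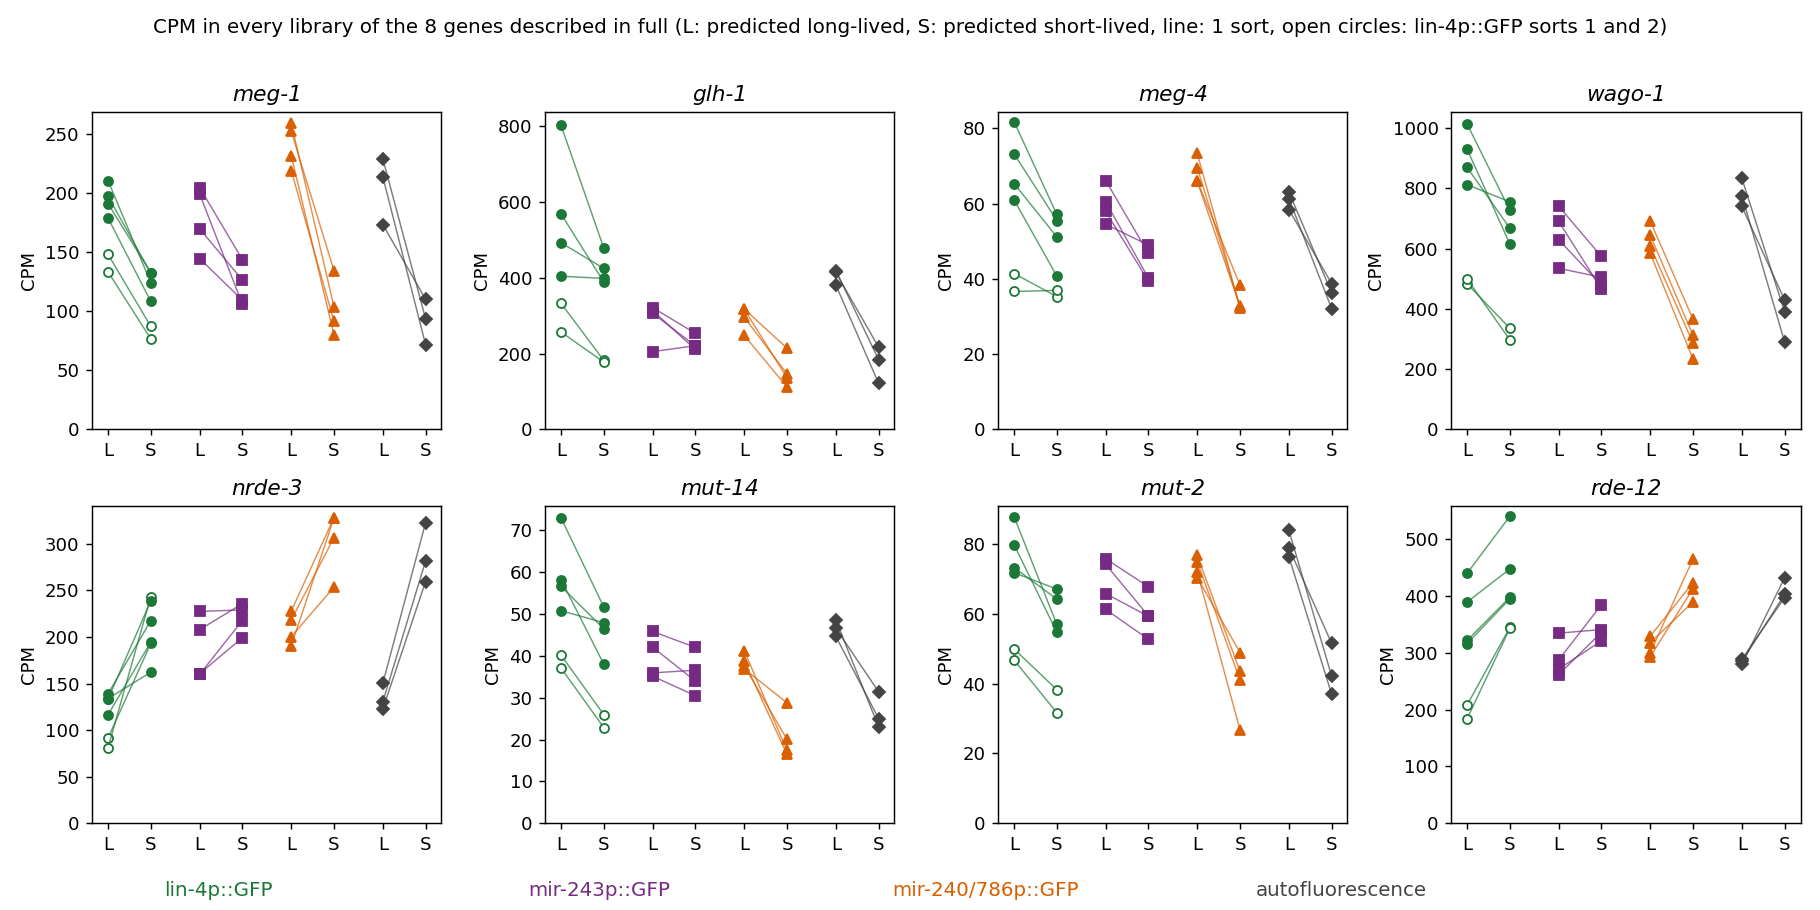
CPM in every library of meg-1, glh-1, meg-4, wago-1, nrde-3, mut-14, mut-2 and rde-12, by biomarker, with predicted long-lived (L) left of predicted short-lived (S), 1 line per sort, and open circles for lin-4p::GFP sorts 1 and 2. Most lines slope down to the right for 6 genes, and all slope up for nrde-3 and rde-12, which were lower in predicted long-lived animals in 17 of 17 sorts.

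Of the 10 Argonaute genes, 1 was called higher (wago-1) and 1 lower (nrde-3), against 19% and 21.6% of all genes, and the median log2 fold change was 0.31. At 0.05, 5 were higher and 1 lower, against 34.7% and 35.6% of all genes. The calls numbered 3 higher and 1 lower with the sort as a block, and 4 higher and 1 lower without lin-4p::GFP sorts 1 and 2, which added csr-1, hrde-1 and, in that second fit alone, rde-1, against 21.5% (block) and 21.6% (without those sorts) of all genes called higher. WAGO-1 binds secondary small RNAs in the germline cytoplasm and silences their targets, while NRDE-3 carries secondary small RNAs into the nuclei of somatic cells, where it stalls transcription.

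The gene wago-1 (WBGene00011061, chromosome I, 7235384 to 7238792, plus strand) had lowest, median and highest levels of 484, 841 and 1014 CPM in lin-4p::GFP libraries predicted long-lived, against 297, 642 and 755 CPM when predicted short-lived. In mir-243p::GFP it had 690.5, 741, 629.6 and 535 CPM when predicted long-lived, against 466, 574, 479 and 505 CPM when predicted short-lived. In these biomarkers the groups overlapped, although each sort was higher on the predicted long-lived side. Its mir-240/786p::GFP levels were 608, 644, 585 and 692 CPM when predicted long-lived, against 287, 312, 233 and 365 CPM when predicted short-lived. Its autofluorescence levels were 740.3, 834 and 776 CPM when predicted long-lived, against 429.5, 390.3 and 290.3 CPM when predicted short-lived. The groups were separate in both, and 17 of 17 sorts were higher. The pooled change was 0.68 ± 0.13 (adjusted p = 1.46e-05).

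The gene nrde-3 (WBGene00019862, chromosome X, 372235 to 376900, plus strand) ran the other way. In lin-4p::GFP its lowest, median and highest levels were 81.2, 125 and 139 CPM when predicted long-lived, against 162, 206 and 243 CPM when predicted short-lived. The mir-243p::GFP levels of nrde-3 were 159.9, 160.6, 208 and 227.5 CPM when predicted long-lived, against 218, 199, 236 and 229 CPM when predicted short-lived. The first pair of groups was separate and the second overlapped. For mir-240/786p::GFP the values were 218, 191, 228 and 200.5 CPM when predicted long-lived, against 307, 328, 328 and 253.5 CPM when predicted short-lived. For autofluorescence they were 123, 130.5 and 150.4 CPM when predicted long-lived, against 259.6, 282 and 323 CPM when predicted short-lived. Neither of these pairs overlapped, and nrde-3 was lower in 17 of 17 sorts. The pooled change was -0.67 ± 0.09 (adjusted p = 5.13e-08), and -0.58 without lin-4p::GFP sorts 1 and 2.

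Among the other Argonautes, hrde-1, which carries heritable silencing into germ cell nuclei, changed by 0.69 ± 0.17, and csr-1, whose protein protects germline transcripts and cleaves some, by 0.57 ± 0.13. Neither was called in the first fit (adjusted p = 0.000798 for hrde-1 and 0.000309 for csr-1), and both were with the sort as a block (9.35e-06 and 3.46e-06). Read counts of csr-1 may include reads of frpr-10, whose exons share 438 bases with it on the same strand. For wago-4, a Z granule Argonaute of inherited silencing, the change was 0.60 ± 0.22 (adjusted p = 0.0143), with levels of 72.8 to 368 CPM in predicted long-lived and 40.3 to 259.8 CPM in predicted short-lived libraries. The primary Argonaute of double-stranded RNA interference, rde-1, changed by 0.25 ± 0.08 (adjusted p = 0.00913).

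The piRNA Argonaute gene prg-1 stood at 0.14 ± 0.09 (adjusted p = 0.171), with medians of 392.3 CPM in predicted long-lived and 380.0 CPM in predicted short-lived libraries. For ergo-1, which binds primary small RNAs of the oocyte and embryo, the change was -0.13 ± 0.12 (adjusted p = 0.334). Over all 4 biomarkers the groups of both genes overlapped. Within mir-240/786p::GFP, prg-1 had 329.8 to 362 CPM when predicted long-lived, against 251.0 to 277.5 CPM when predicted short-lived (log2 fold change 0.40, adjusted p = 0.0764, blocked by sort 0.0048), and within autofluorescence 400.1 to 428 CPM when predicted long-lived, against 324.5 to 384 CPM when predicted short-lived, so its groups did not overlap in either of these biomarkers. Those of ergo-1 overlapped in each biomarker. The sperm Argonautes alg-3 and alg-4 were close to the detection floor, with 2 to 93 and 1 to 95 counts per library and 3 counts or fewer in 3 and 5 libraries. In mir-240/786p::GFP, alg-4 had 4.76, 1.81, 0.497 and 0.697 CPM when predicted long-lived, against 0.239, 0.363, 0.295 and 0.614 CPM when predicted short-lived. The highest alg-4 level there was thus that of predicted long-lived sort 1. In mir-243p::GFP it had 0.0386, 0.112, 0.436 and 0.324 CPM when predicted long-lived, against 0.495, 1.38, 0.860 and 0.233 CPM when predicted short-lived. Pooled fold changes were -0.35 ± 0.33 for alg-3 and 0.37 ± 0.49 for alg-4, neither past 0.05.

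Of the 14 polymerase and mutator genes, 3 were called higher (mut-2, mut-14 and rde-8) and 1 lower (rde-12), and the median log2 fold change was 0.13. At 0.05, 5 were higher, 1 was lower and 8 did not pass. The shares called higher and higher at 0.05 are thus near those of all genes (19% and 34.7%), and the shares lower are below theirs (21.6% and 35.6%). MUT-2, also called RDE-3, adds UG repeats to the ends of targeted transcripts, which primes their copying, and MUT-14 is a DEAD box helicase of mutator foci. RDE-8 is the endonuclease that cuts the target, and RDE-12 is a helicase that acts with the polymerase on the target.

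The gene mut-2 (WBGene00003499, chromosome I, 6356614 to 6358411, minus strand) had lowest, median and highest levels of 46.8, 72.5 and 87.8 CPM in lin-4p::GFP libraries predicted long-lived, against 31.7, 55.9 and 67.1 CPM when predicted short-lived. In mir-243p::GFP, mut-2 had 74.2, 75.8, 61.3 and 65.8 CPM when predicted long-lived, against 59.4, 67.8, 52.7 and 59.3 CPM when predicted short-lived. The groups overlapped in both. In mir-240/786p::GFP, mut-2 had 76.7, 74.9, 72.0 and 70.3 CPM when predicted long-lived, against 43.5, 41.02, 26.7 and 48.9 CPM when predicted short-lived. In autofluorescence, mut-2 had 78.9, 84.0 and 76.4 CPM when predicted long-lived, against 51.6, 42.2 and 37.0 CPM when predicted short-lived. These groups were separate, and 17 of 17 sorts were higher. The pooled change was 0.55 ± 0.10 (adjusted p = 2.47e-05). Its exons overlap those of bli-4 by 67 bases on the opposite strand, and the use of strand in the counting was not given.

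Helicase gene mut-14 (WBGene00003507, chromosome V, 5658713 to 5660704, minus strand) had lowest, median and highest levels of 37.1, 53.6 and 72.9 CPM in lin-4p::GFP libraries predicted long-lived, against 22.8, 42.2 and 51.6 CPM when predicted short-lived. Its mir-243p::GFP levels were 42.1, 45.8, 35.1 and 35.9 CPM when predicted long-lived, against 33.9, 42.0, 30.5 and 36.5 CPM when predicted short-lived. Here too the groups overlapped in both. Its mir-240/786p::GFP levels were 37.6, 41.2, 38.7 and 36.8 CPM when predicted long-lived, against 20.0, 17.4, 16.4 and 28.8 CPM when predicted short-lived. Its levels in autofluorescence libraries were 46.5, 44.6 and 48.5 CPM when predicted long-lived, against 31.4, 25.0 and 23 CPM when predicted short-lived. Both biomarkers separated the groups, and 16 of 17 sorts were higher. The change of 0.55 ± 0.11 (adjusted p = 6.03e-05) lost its call when any 1 of 16 libraries was left out, with adjusted p up to 0.000147. A close relative, smut-1, changed by 0.20 ± 0.04 (adjusted p = 0.000165), and reads that match both genes could have been counted for either.

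For rde-12 (WBGene00010280, chromosome V, 13665389 to 13669292, plus strand), the lin-4p::GFP lowest, median and highest levels were 184, 319 and 440.3 CPM when predicted long-lived, against 343, 397 and 541 CPM when predicted short-lived. The mir-243p::GFP levels of rde-12 were 272, 262, 335 and 288 CPM when predicted long-lived, against 321, 336.5, 341 and 385 CPM when predicted short-lived. The groups overlapped in both. The mir-240/786p::GFP levels were 318, 300.5, 293.5 and 329.7 CPM when predicted long-lived, against 389.9, 466, 413 and 424 CPM when predicted short-lived. The autofluorescence levels of rde-12 were 289, 279.9 and 285 CPM when predicted long-lived, against 398, 432 and 403 CPM when predicted short-lived. These 2 biomarkers separated the groups, and rde-12 was lower in 17 of 17 sorts. The pooled change was -0.40 ± 0.08 (adjusted p = 6.82e-05). Leaving out any 1 of 20 libraries took the adjusted p past 0.0001, to at most 0.000162, and with the sort as a block it was 4.37e-07.

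The other polymerase and mutator genes had small fold changes, apart from ego-1. EGO-1 is the germline RNA-dependent RNA polymerase and RRF-1 its relative that also works in the soma, and the 2 genes are neighbours on chromosome I. The change of ego-1 was 0.51 ± 0.15 (adjusted p = 0.00224, and 4.66e-05 with the sort as a block), whereas that of rrf-1 was -0.02 ± 0.10 (adjusted p = 0.837). The difference between the pair was not tested. For rde-8, the change was 0.22 ± 0.04 (adjusted p = 1.98e-05) with 16 of 17 sorts higher, and for rde-11, which works with rde-10 downstream of RDE-1, it was 0.19 ± 0.06 (adjusted p = 0.00344). The scaffold protein of mutator foci is encoded by mut-16, which stood at -0.03 ± 0.10, with medians of 201 CPM in both groups. Its partner genes mut-7, an exonuclease, and mut-15 stood at 0.11 ± 0.09 and -0.06 ± 0.05. The polymerase cofactor genes drh-3, a helicase, and ekl-1, a Tudor domain protein, stood at 0.11 ± 0.09 and 0.05 ± 0.04, rrf-3, the polymerase of the endogenous pathway, at 0.16 ± 0.10, and rde-10 at 0.14 ± 0.08. With rrf-1, these are the 8 genes of the class that did not pass 0.05 in the first fit.

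None of the 6 germline regulators was called in the first edgeR fit or in DESeq2. With the sort as a block, glp-1 and gld-3 were called higher, against 21.5% of all genes. The same 2 were called without lin-4p::GFP sorts 1 and 2, against 21.6% of all genes. At an unadjusted p of 0.05, 4 passed in the first edgeR fit, against 10303 of all 14245 genes. The same number passed an adjusted p of 0.05, all 4 higher, against 34.7% of all genes higher. The Notch receptor gene glp-1, which keeps germline stem cells dividing, changed by 0.59 ± 0.17 (adjusted p = 0.00271) and was higher in 17 of 17 sorts. Its levels spanned 144 to 618.5 CPM in predicted long-lived and 108 to 416 CPM in predicted short-lived libraries, and it was called with the sort as a block (4.11e-06). The gene of the cytoplasmic polyadenylation factor GLD-3 changed by 0.40 ± 0.10 (adjusted p = 0.000553, and 1.95e-05 blocked). The stem cell PUF protein genes fbf-1 and fbf-2 changed by 0.57 ± 0.15 and 0.50 ± 0.15. They are near-identical copies, so reads could have been divided between them. Neither gld-2, the poly(A) polymerase, at 0.15 ± 0.15, nor nos-3, a Nanos relative, at -0.05 ± 0.13, passed 0.05.

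Counted by sort, 7 genes were higher in all 17 (pgl-2, deps-1, meg-1, meg-3, wago-1, mut-2 and glp-1) and 2 were lower in all 17 (nrde-3 and rde-12). Over all genes, 12.5% were higher and 15.6% lower in every sort, so these counts of 7 and 2 among 48 are near or below the background.

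Within single biomarkers, the median fold changes of the granule, Argonaute and germline regulator genes were higher for mir-240/786p::GFP and autofluorescence than for the other predictors, although no single gene passed the interaction test of the first fit. The median log2 fold change of the 18 granule genes was 0.37 in the lin-4p::GFP sorts, 0.31 in the mir-243p::GFP sorts, 0.91 in the mir-240/786p::GFP sorts and 0.89 in the autofluorescence sorts. For the 10 Argonaute genes the medians were 0.15, 0.02, 0.73 and 0.70 in the same order, and for the 14 polymerase and mutator genes they were 0.11, 0.08, 0.22 and 0.12. For the 6 germline regulators they were 0.29, 0.08, 0.67 and 0.70. In 37 of the 48 genes, both the mir-240/786p::GFP and the autofluorescence fold change exceeded both others (77.1%), against 23.3% of all genes tested. For meg-1 the fold changes were 0.68 ± 0.15 in lin-4p::GFP, 0.57 ± 0.18 in mir-243p::GFP, 1.23 ± 0.18 in mir-240/786p::GFP and 1.16 ± 0.21 in autofluorescence. For nrde-3 they were -0.85 ± 0.12, -0.22 ± 0.15, -0.54 ± 0.15 and -1.10 ± 0.18.

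In lin-4p::GFP, 1 gene was called (nrde-3, lower), against 14.2% of all genes, and at 0.05, 8 were higher and 2 lower, against 24.5% and 25.8%. In mir-243p::GFP none was called by edgeR or DESeq2, against 0.814% of all genes. At an unadjusted p under 0.05 there were 3 genes, against 5112 of all 14245 genes. At an adjusted 0.05 meg-1 alone was higher, against 10.6% of all genes higher and 13% lower. In mir-240/786p::GFP, pgl-2, meg-1 and meg-4 were called higher, against 15.1% of all genes, and at 0.05, 26 were higher and 2 lower, against 24.6% and 26.5%. In autofluorescence, meg-1 was called higher and nrde-3 lower, against 7.18% of all genes, and at 0.05, 24 were higher and 2 lower, against 21.3% and 21.7%. The 2 genes lower at 0.05 were nrde-3 and rde-12 in each of lin-4p::GFP, mir-240/786p::GFP and autofluorescence.

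With the sort as a block, 2 genes were called in lin-4p::GFP (19% of all genes), 20 in mir-240/786p::GFP (23.5%) and 17 in autofluorescence (15.1%), and again none in mir-243p::GFP. Without lin-4p::GFP sorts 1 and 2, which share the spread estimate with the other biomarkers, 19 were called in mir-240/786p::GFP (26% of all genes) and 14 in autofluorescence (16.9%). The counts in the first fit rested on few libraries. Leaving out either of predicted short-lived sorts 1 and 3 or either of predicted long-lived sorts 3 and 4 left 1 call in mir-240/786p::GFP. In autofluorescence, 1 call was left without predicted short-lived sort 2 or predicted long-lived sort 3, and none without predicted short-lived sort 3, predicted long-lived sort 1 or predicted long-lived sort 2.

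**Figure D4:**
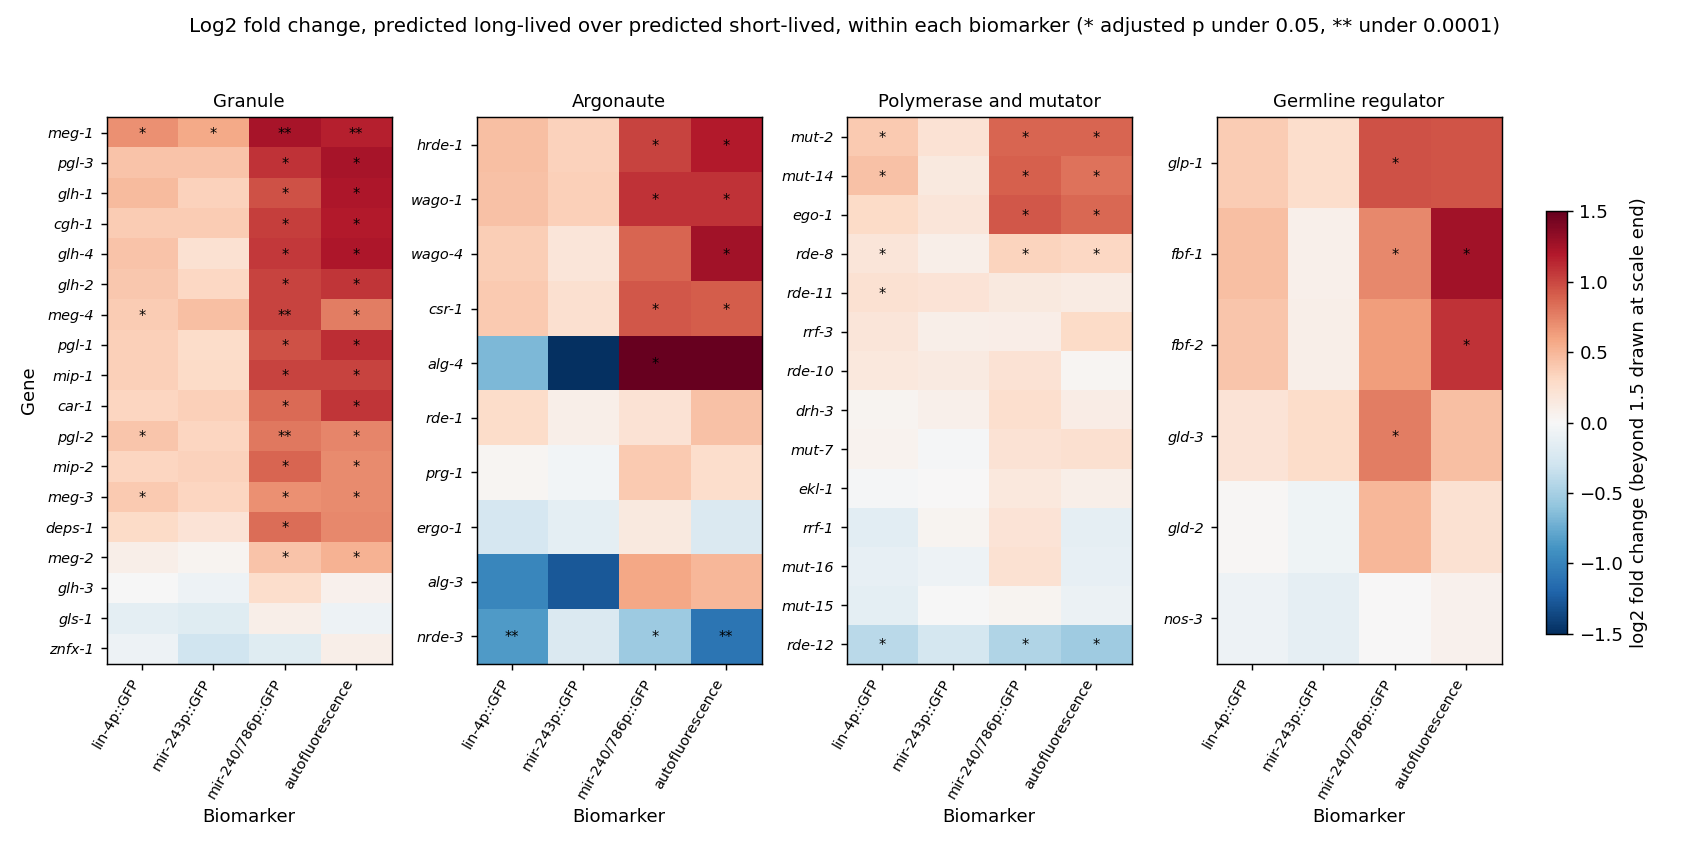
Log2 fold change of each gene, predicted long-lived over predicted short-lived, within each of the 4 biomarkers, in 4 panels by class (red higher, blue lower, values beyond 1.5 drawn at the end of the scale; 1 asterisk, adjusted p under 0.05; 2 asterisks, under 0.0001). The mir-240/786p::GFP and autofluorescence columns are the deepest red for most granule genes, and nrde-3 and rde-12 are blue in all 4 columns.

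Whether the change differed between biomarkers was tested as an interaction. None of the 48 genes passed an adjusted p of 0.05 in the first edgeR fit, against 1.74% of all genes. At an unadjusted p under 0.05 there were 6 (meg-1, meg-2, meg-4, mip-1, nrde-3 and alg-4), against 2573 of all 14245 genes. DESeq2 passed nrde-3 and alg-4, which in edgeR had adjusted p-values of 0.0776 and 0.0754. With the sort as a block 21 genes passed, against 16% of all genes, and in 20 of the 21 the mir-240/786p::GFP and autofluorescence fold changes both exceeded those of lin-4p::GFP and mir-243p::GFP. The 21 were picked by a test on these same fold changes, and 37 of the 48 genes had this order in the first fit. The 20 are therefore no separate evidence of the order, which was not counted among all genes that passed. The 21 comprised 10 granule genes, 5 Argonaute genes, 3 polymerase and mutator genes and 3 germline regulators, among them wago-1 (adjusted p = 0.00548), pgl-1 (0.00576), deps-1 (0.00481) and glp-1 (0.00548). The exception was nrde-3, whose decrease was smallest in mir-243p::GFP. Without lin-4p::GFP sorts 1 and 2, 16 genes passed, against 14.5% of all genes.

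Compared per length, the levels of the set spanned a wide range. As means of all 34 libraries in CPM per kb of exon, car-1 stood at 435 ± 149 (SD), cgh-1 at 366 ± 137, wago-1 at 191 ± 66.2, ergo-1 at 179 ± 43.2, prg-1 at 151 ± 41.9 and pgl-1 at 148 ± 60.8. Apart from cgh-1 and wago-1, neighbours in this order differed by less than the SD of either. At the low end, fbf-1 stood at 14.3 ± 5.47, fbf-2 at 8.76 ± 3.08, alg-3 at 0.342 ± 0.273 and alg-4 at 0.259 ± 0.308 CPM per kb, so the sperm Argonautes lay far below the rest. These levels order the transcripts in whole animals and carry no test.

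Further genes of the same pathways, outside the 48, were counted in the same fit, to be read against 19% of all genes called higher and 21.6% called lower. Of 36 further small RNA pathway genes, 14 were called higher and 1 lower, with a median log2 fold change of 0.26. The largest calls were simr-1 (0.80 ± 0.15, adjusted p = 1.31e-05), a Tudor domain protein that passes piRNA targets to the mutator machinery, and parn-1 (0.76 ± 0.08, adjusted p = 2.69e-10), which trims piRNAs. The single lower call was nrde-2 (-0.30 ± 0.06, adjusted p = 6.95e-05), a nuclear partner of NRDE-3, lower in 17 of 17 sorts. In the same list, nrde-1 (-0.11 ± 0.05) and nrde-4 (-0.02 ± 0.04) were not called. Of 15 further germ granule genes, 5 were called higher and none lower, with a median of 0.25, the largest being nos-2 (0.81 ± 0.09, adjusted p = 4.21e-09) and spn-4 (0.70 ± 0.10, adjusted p = 1.53e-07), maternal transcripts used in the early embryo. Of 17 further germline regulators, 3 were called higher and none lower, which is near the share of all genes, with a median of 0.52, led by fog-1 (0.89 ± 0.13, adjusted p = 5.46e-07), a sperm fate factor, and puf-11 (0.75 ± 0.09, adjusted p = 1.88e-08), an oocyte PUF protein.

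**Figure D5:**
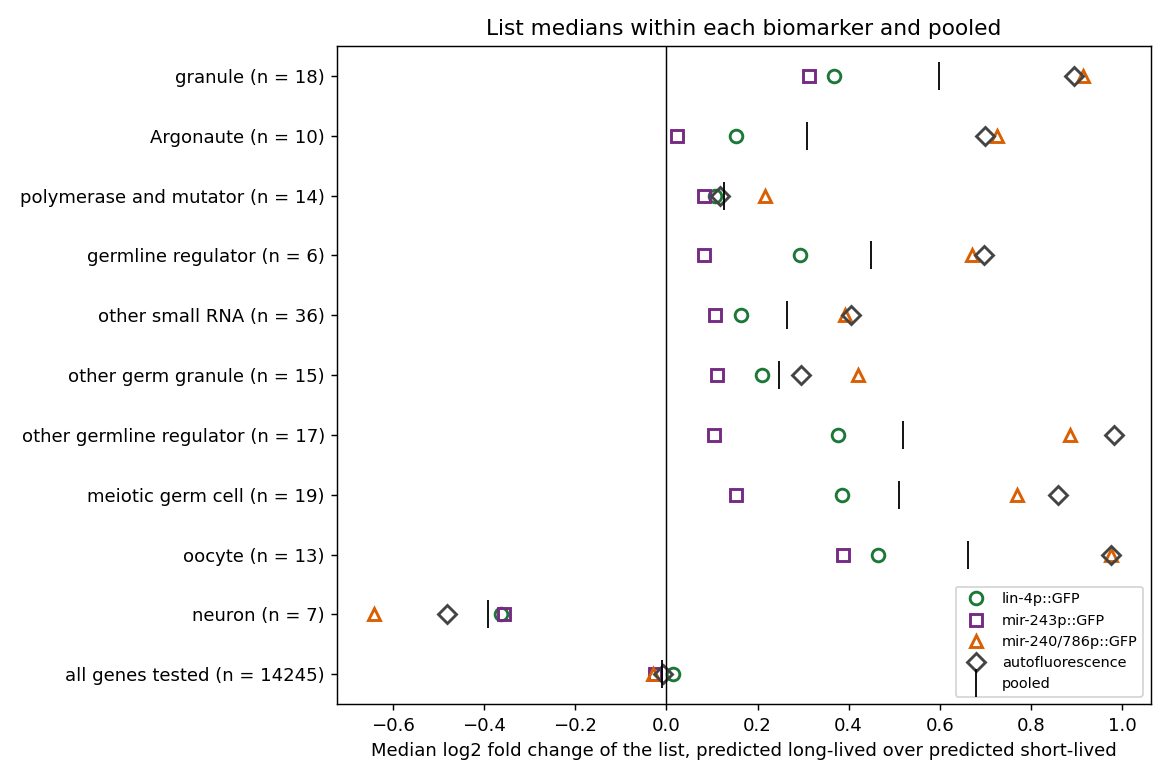
Median log2 fold change of each gene list, predicted long-lived over predicted short-lived, within each biomarker (symbols) and pooled (vertical tick), with the number of genes tested. The granule list (pooled 0.60) lies beside the oocyte (0.66) and meiotic germ cell (0.51) lists, the neuron list lies at -0.39, and all genes lie at -0.01.

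Marker genes of germ cells were counted against the same shares of all genes, 19% higher and 21.6% lower. Of the 19 meiotic markers, 13 were called higher and none lower, with a median of 0.51, and their summed level was 1276 to 1985 CPM in predicted long-lived and 782 to 1521 CPM in predicted short-lived libraries. Of the 13 oocyte markers, 8 were called higher and none lower, with a median of 0.66, and they summed to 7577 to 14290 CPM in predicted long-lived and 4471 to 11120 CPM in predicted short-lived libraries. The oocyte marker mbk-2, a kinase gene of the egg-to-embryo transition, went the other way (-0.33 ± 0.09, adjusted p = 0.00223, lower in 17 of 17 sorts). No meiotic or oocyte marker was at 0 in any library. Among the 20 sperm markers, 6 passed the filter. Of these, ssp-10 was called higher (2.33 ± 0.28, edgeR adjusted p = 7.62e-09, higher in 17 of 17 sorts), with 1 to 88 counts per library. The marker spe-15 was also called higher (0.54 ± 0.07, edgeR adjusted p = 1.15e-07). The lower call was fer-1 (-0.82 ± 0.16, edgeR adjusted p = 2.76e-05, lower in 17 of 17 sorts). The sperm list summed to 26.5 to 109 CPM in predicted long-lived and 21.0 to 56.0 CPM in predicted short-lived libraries. In it, 1 marker was at 0 in 18 of the 34 libraries.

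Somatic markers moved in both directions, again to be read against 19% of all genes called higher and 21.6% called lower. Of the 7 neuronal markers, 4 were called lower, the direction of nrde-3 and rde-12, and none higher. All 7 together summed to 296.5 to 374 CPM in predicted long-lived and 380 to 544 CPM in predicted short-lived libraries, without overlap. This sum is weighted towards snb-1 (-0.39 ± 0.06), with a median of 5378 counts per library, against 41 to 888 for each of the others. Of the markers not called, rab-3 changed by -0.39 ± 0.15. The changes of egl-3 (-0.04 ± 0.18) and unc-104 (-0.04 ± 0.09) were small, with 10 and 8 of 17 sorts higher. The 10 intestinal markers, 5 of them vitellogenins, summed to 12380 to 136100 CPM in predicted long-lived and 1390 to 43450 CPM in predicted short-lived libraries, with 4 called higher and none lower. Of 6 muscle markers 1 was called lower (hlh-1, -1.52 ± 0.185) and none higher. Among the others, unc-54 changed by 1.04 ± 0.24 (edgeR adjusted p = 0.000264) and unc-15 by 0.95 ± 0.21 (0.000119). Both were higher and missed the call. The muscle markers summed to 131 to 734 CPM (median 212) in predicted long-lived and 49.5 to 480 CPM (median 123) in predicted short-lived libraries. Of 6 epidermal markers 4 passed and 1 was called lower, and of 7 somatic gonad markers 2 were called higher and 2 lower. No neuronal, intestinal or muscle marker was at 0 in any library. The part of these cell types in the changes of the 48 genes was not tested.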

How the data were processed

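RNA-seq counts per gene were analysed for 34 libraries from 17 sorts. The authors extracted RNA, selected poly(A) transcripts and depleted ribosomal RNA, and the deposited values are raw read counts. The submitters' processing notes name STAR 2.7.3a, featureCounts and the build WBcel235. The annotation, the strand setting and the handling of reads with several matches were not given in the sources used here. Positions, exon overlaps and lengths were taken from Ensembl release 115. A gene was tested where 26 or more libraries held 5 or more counts (14245 of 20223 rows) with the quasi-likelihood F-test of edgeR 4.0.16 in R 4.3.3, with trimmed mean of M values scaling and Benjamini-Hochberg adjustment over all genes tested. The gfp row counted towards library size and was not tested. The pooled model held the biomarker and the predicted lifespan. Contrasts within biomarkers and their interaction came from 8 group means over all libraries. Genes were called at an adjusted p under 0.0001, with 0.05 given beside it. The study's sequencing batch and age terms were not used here.

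High and low libraries of a number came from 1 sort per the labels, so the sort was tried as a replicate block. The deviations of the 2 libraries of a sort from their group means correlated at -0.071 to 0.571. The first fit took the 2 libraries of a sort as independent, so its p-values measure the spread between libraries of a group. With the block, they measure the spread of the differences within sorts. No label says that sorts were separate cultures, so either spread may be technical. Replicate libraries all differed by more than counting noise. Values in every library are given for the 3 called genes of each class with the largest pooled fold change. The members and lists were chosen with earlier results of these data known. The pipeline was tested on simulated data. Alternatives were size factors (RLE), library totals, no filter, the block, DESeq2 1.42.0, each biomarker's own libraries, and leaving out libraries. Sequences were not used here.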

Additional observations from a re-analysis of the deposited data

Results flagged for a closer look

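Of 48 groups examined for a library far from the others, 2 held one, where chance gives about 1 in 20. Among the predicted long-lived mir-243p::GFP libraries, glh-1 had 205 CPM in sort 4, well below the 307 to 321 CPM of the other sorts. The low level was not particular to glh-1. That library was also the lowest of its group for pgl-3 (99.3 against 177.5 to 214.5 CPM) and car-1 (413.9 against 773.5 to 954 CPM). The same was true of cgh-1 (512.5 against 994.4 to 1152 CPM), but not of pgl-2 (42.8 against 40.5 to 47.4 CPM). How many genes of the set share this was not counted. Among the predicted short-lived mir-240/786p::GFP libraries, meg-4 had 38.3 CPM in sort 2, above the 32.2 to 32.7 CPM of the other sorts.

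The mutator gene mut-15 was higher in predicted long-lived animals in all 4 mir-240/786p::GFP sorts and lower in all 3 autofluorescence sorts. The levels were 64.7, 65.2, 65.0 and 61.4 CPM in predicted long-lived mir-240/786p::GFP libraries, against 64.6, 62.0, 64.1 and 59.2 CPM in predicted short-lived ones. In autofluorescence they were 65.6, 67.0 and 70.7 CPM when predicted long-lived, against 71.4, 69.3 and 74.5 CPM when predicted short-lived. The interaction over the 4 biomarkers did not pass (edgeR adjusted p = 0.807), and the difference between this pair of biomarkers alone was not tested.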

How the results depend on the processing

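All 320 alternatives of the 8 genes described in full kept their direction, and 63 lost the call, all of them in glh-1, mut-14 or rde-12. The 8 genes were picked by their pooled change in these same libraries, so a kept direction is no separate evidence. Besides left-out libraries, RLE size factors ended the calls of glh-1 (adjusted p = 0.000105) and rde-12 (0.000132), and no filter on low counts that of rde-12 (0.000206). The 13 pooled calls numbered 25 once the sort was a block, 25 without lin-4p::GFP sorts 1 and 2, and 10 to 18 without 1 library. Of all genes, 40.6% were called in the first fit, 44.5% with the block and 43.4% without those sorts. Without 1 library, 38.1% to 41.5% of all genes were called. The interaction, with 0 genes past 0.05, had 21 with the block, 16 without those sorts, 2 in DESeq2 and 0 to 1 without 1 library. Over all genes, 1.74% passed in the first fit, 16% with the block and 14.5% without those sorts. For lin-4p::GFP, 1 call became 3 with library totals, 2 with the block, 0 with its own libraries only and 2 in DESeq2, and stayed 1 without 1 library. There, 14.2% of all genes were called in the first fit and 19% with the block. For mir-240/786p::GFP, 3 calls became 9 with library totals, 20 with the block, 19 without those sorts, 8 with its own libraries only and 7 in DESeq2, and 1 to 4 without 1 library. Its shares of all genes were 15.1% in the first fit, 23.5% with the block and 26% without those sorts. For autofluorescence, 2 calls became 1 with RLE size factors, 17 with the block, 14 without those sorts and 0 with its own libraries only, and 0 to 2 without 1 library. The shares of all genes were 7.18% in the first fit, 15.1% with the block and 16.9% without those sorts. Shares for the remaining fits are not given here, so those counts cannot be read as particular to the set. The cause of these shifts was not tested. No alternative gave a call in mir-243p::GFP. Without a filter, the median log2 fold change of all genes was -0.11. In that fit 12 genes of the set were called higher and 1 lower, against 29.7% of all genes called in either direction. With 1 to 95 counts per library, alg-3 and alg-4 had the least precise fold changes of the 48 genes.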
